A study of Macaca mulatta with 8 samples.

Results

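The transcript landscape of rhesus macaque microglia exposed to ultrapure lipopolysaccharide (uLPS) alone was taken from 4 of the 8 RNA-seq libraries of the study. These are the libraries whose treatment label names 10 µg/mL uLPS and no MRS2578, and there is 1 for each of 4 animals. The other 4 libraries come from the same animals and received 5 µM MRS2578, an antagonist of the UDP receptor P2RY6, 1 h before uLPS. Which genes and gene classes held most reads, and which differed most between animals, was described for the 4 libraries, and the effect of MRS2578 was not examined. Microglia were isolated from the subcortical white matter of adult animals, of which R07110 and R12016 were male and R02046 and R14143 female. The animals also differed in age. Per the paper, R02046 was the oldest of the 4 and R14143 the youngest, so age and animal cannot be told apart. The microglia were kept for 8 days without passage in medium with serum and M-CSF, and they were exposed from day 7 for 16 h. The labels and the methods of the paper give different M-CSF concentrations. None of the 8 libraries is without uLPS, so a level is the level after uLPS and not a response to it. These are bulk libraries of cultured cells, in which fewer cells of a type and less RNA per cell cannot be told apart.

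Microglia are macrophages that reside in the brain, and they depend on the receptor CSF1R for survival. Lipopolysaccharide is bound by CD14 and by the complex of TLR4 and LY96, which signals through MYD88 to NF-κB and through TICAM1 to type I interferon. In macrophages this pathway is known to drive cytokines such as IL1B, chemokines such as CCL5, protective enzymes such as SOD2 and, through secreted interferon, a large set of antiviral genes.

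The total count was 32790348, 16883385, 9231109 and 20087996 in R07110, R12016, R02046 and R14143, the order in which the values of the 4 animals are given throughout. Levels are given as CPM, the count of a gene per 1e6 of that total. A count of 0 allows 3 counts, which is 0.0915 CPM in the largest and 0.325 CPM in the smallest library and covers counting error only. For R02046, a supplementary table of the paper gives the 2 libraries the opposite conditions to the labels, whereas the other 6 of its 8 columns have the labelled condition and all 8 the labelled animal. The labels were followed, and values without R02046, or with its other library in place, are given beside the results that they touch. The R02046 library also differed by gene length. Its median log2 difference from the mean of the other animals was 0.27 over the 25% of genes with the shortest exons and -0.26 over the 25% with the longest. The other 3 libraries stayed within 0.13 of 0 in both groups of genes, and the part of length in the differences between animals was not tested.

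Differences between the 4 animals were tested gene by gene in edgeR (quasi-likelihood test), where the second library of each animal gave the error and the mean effect of the condition was a term. An adjusted p (Benjamini-Hochberg) under 0.05 was reached by 770 of 12131 genes, which is 6.35%, and by 802 of 12295 genes, 6.52%, without R02046. The number was 2141, or 17.6%, when the conditions of the R02046 libraries were exchanged in the test, and 304 without R12016. An unadjusted p under 0.05 was found for 3431 genes. A gene called in this way differed between animals when both libraries of each were used. Where the 2 libraries of an animal differed unevenly, the error of the test was wider. A missing call therefore does not show that the animals were alike with uLPS alone.

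The labelled cell type was checked against markers. All 14 microglia and macrophage markers were at 11.9 CPM or more in every library, and together they took 1.405%, 1.51%, 1.26% and 1.41% of reads in R07110, R12016, R02046 and R14143. Of the 14, 5 were called, 3 without R02046 and 7 with its libraries exchanged, against 6.35%, 6.52% and 17.6% of all genes. CSF1R was at 1473, 985, 1258 and 1195 CPM, and it was not called (adjusted p = 0.313). Of the markers of homeostatic microglia, 6 of the 9 found were above 1 CPM in all animals, among them the transcription factor SALL1 at 13.2 to 18.4 CPM and the ADP receptor P2RY12 at 5.63 to 13.3 CPM. TMEM119, the fractalkine receptor CX3CR1 and P2RY13 were below 1 CPM in all 4 libraries, at most 0.237 CPM. CD163 and MRC1, which mark border macrophages but are also induced in culture, were at 916 to 1063 and 283 to 453 CPM. The neutrophil and monocyte genes S100A8, S100A9 and S100A12 did not exceed 0.0498 CPM. Among border macrophage and monocyte markers 2 of 5 tested were called, and among homeostatic markers 0 of 6.

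Markers of other cells held small shares of the reads. All 10 lymphocyte, 5 neuron and 2 erythroid markers found were under 1 CPM in every library, with CD3D, CD3E, CD3G, NKG7, GNLY, RBFOX3 and ALAS2 at a count of 0 throughout. The summed level of the oligodendrocyte markers lay between 0.0231% and 0.0378% of reads and rested on CNP at 172 to 318 CPM and MBP at 57.7 to 70.7 CPM. Astrocyte markers took 0.0118% to 0.0227%, carried by 5 of 7 genes above 1 CPM in all animals, among them the glutamate transporter SLC1A3 at 39.98 to 76.6 CPM and GFAP at 12.02 to 57.4 CPM, while the water channel AQP4 was at 0 to 2.43 CPM. Endothelial markers took 0.0199% to 0.0308%, carried by 3 of 6 genes, PECAM1 at 101 to 162 CPM, VWF at 51.9 to 63.6 CPM and FLT1 at 3.57 to 86.1 CPM, while CLDN5 and CDH5 were below 0.1 CPM and EMCN at 0. The precursor markers PDGFRA and CSPG4 were at 42.9 to 68.3 and 25.7 to 58.8 CPM, whereas OLIG2 and SOX10, which define that lineage, did not exceed 0.366 CPM. Fibroblast and mural markers were the exception, with 0.0153%, 0.00886%, 0.0377% and 0.117% of reads in R07110, R12016, R02046 and R14143. The pericyte marker RGS5 was at a count of 0 in all 4. Most of this range lay in COL1A1, COL1A2 and COL3A1, at 501, 323 and 205 CPM in R14143 and at 38.3, 21.2 and 8.94 CPM in R12016. Markers of dividing cells took 0.0320%, 0.0119%, 0.0246% and 0.0231% of reads, lowest in R12016 for all 5 genes, against 3478 of 12130 genes tested. Of them 3 of 5 were called, against 6.35% of all genes.

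**Figure D1:**
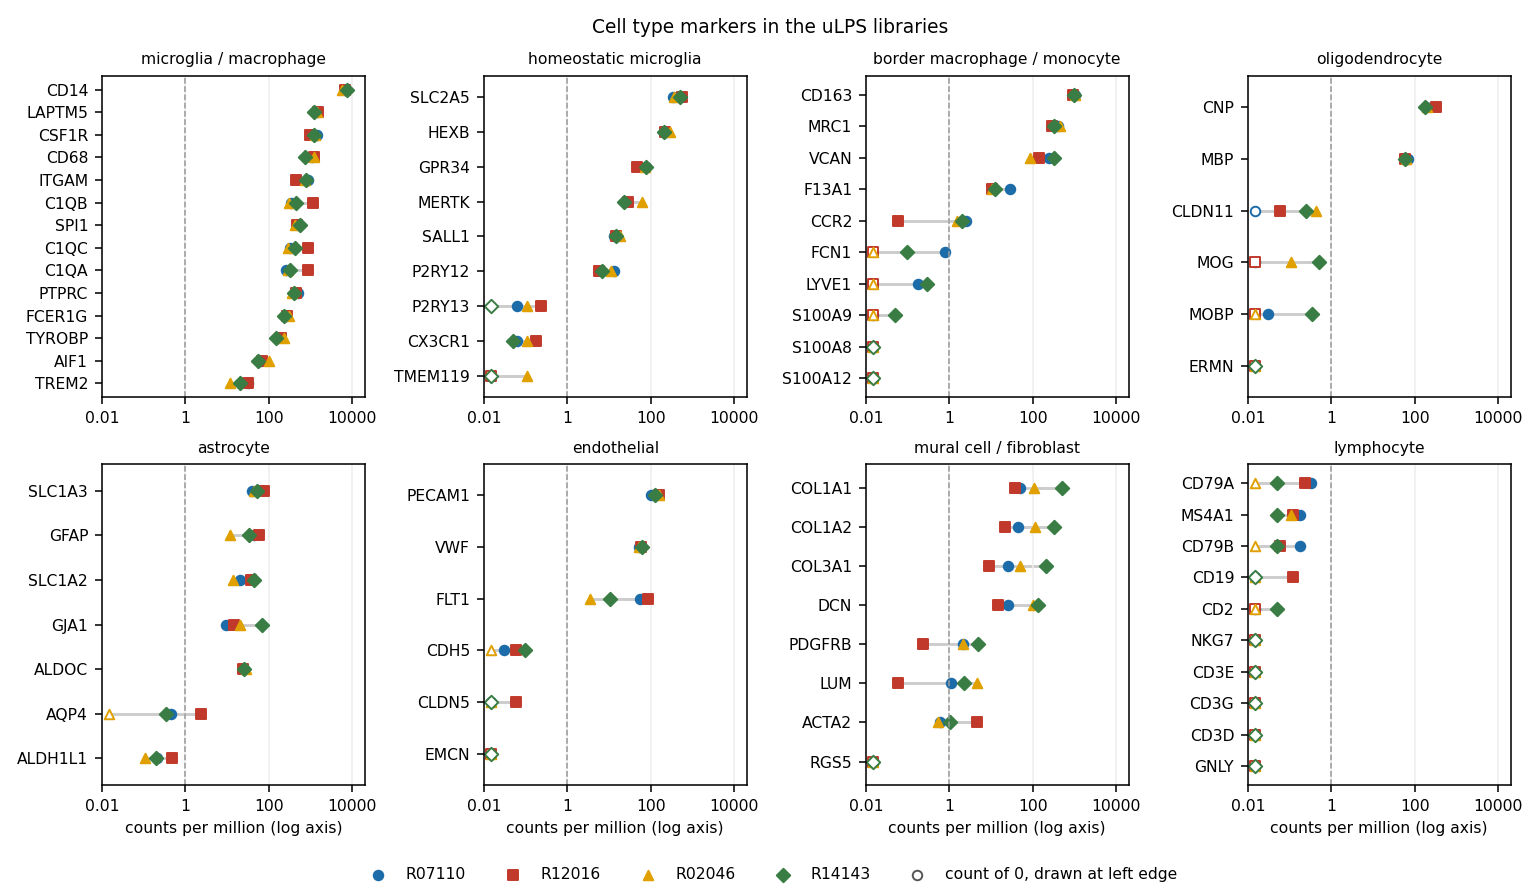
Level of markers of 8 cell types in the 4 uLPS libraries, in CPM on a log axis, with 1 panel for each cell type, 1 symbol for each animal and the dashed line at 1 CPM. All 14 microglia and macrophage markers lie to the right of the line, lymphocyte markers lie to the left of it, and the 3 collagen genes are highest in R14143.

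In each library, 11399 to 11612 genes reached 1 CPM, and 10789 genes did so in all 4. Reads were concentrated in few of them. The 10 genes with the highest mean held 11.2% of the reads and the highest 100 held 27.4%, and 581 genes were enough for 50% of them (565 without R02046). In each animal 87 to 98 genes exceeded 1000 CPM. Of the 25 genes with the highest mean, 24 were also among the highest 25 without R02046, and 15 were in the highest 25 of every animal.

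Osteopontin (SPP1), a secreted phosphoprotein that binds integrins and CD44, was the most abundant transcript in all 4 animals. It was at 43955, 37496, 47010.5 and 31968 CPM in R07110, R12016, R02046 and R14143, a mean of 40107 ± 6721 CPM (SD, n = 4 animals), or 37806 CPM without R02046. The gelatinase MMP9 followed with 15681, 9817, 14355 and 20339 CPM. Its lowest value, in R12016, and its highest, in R14143, differed 2.07-fold, which the test between animals did not call (adjusted p = 0.0975, and 0.0444 without R02046).

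IL1B, which encodes the precursor of interleukin-1β, was the third most abundant transcript. Its level was 11161, 10801, 6845 and 17959 CPM in R07110, R12016, R02046 and R14143. R14143 was highest and R02046 lowest, with R07110 and R12016 close together, and the gene was not called (adjusted p = 0.236). With its other library in place, R02046 was at 9500.5 CPM, still the lowest.

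Lysosomal cathepsin B (CTSB), at 10061 ± 2511 CPM, came next. It was followed by a gene without a symbol, ENSMMUG00000018157, at 7007 ± 495 CPM, the uLPS co-receptor CD14 at 6596 ± 794 CPM and prosaposin (PSAP), the precursor of activators of sphingolipid breakdown, at 5667 ± 866 CPM. The intermediate filament vimentin (VIM) was at 5389.8 ± 1538 CPM and the hyaluronan receptor CD44 at 5259 ± 1576 CPM. The neutrophil-attracting chemokines CXCL3 and CXCL8 were at 4892 ± 1123 CPM and 4478 ± 830.2 CPM, the actin crosslinker filamin A (FLNA) at 4463 ± 1031 CPM and the membrane-bound protease MMP14 at 4440.4 ± 578 CPM.

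SOD2, the manganese superoxide dismutase of mitochondria, was at 4870.0, 5994, 2377 and 3739.7 CPM in R07110, R12016, R02046 and R14143. R02046 had the lowest level and R12016 the highest, but the difference was not called (adjusted p = 0.168), and the mean was 4868 CPM without R02046 against 4245 CPM with it. The chemokine CCL5, which attracts T cells and monocytes, was at 1337, 2898, 906 and 1089 CPM. R12016 was above the other 3 animals, and CCL5 was called without R02046 (adjusted p = 0.0159) but not with it (0.0990).

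Cathepsin L (CTSL) was the gene among the highest 25 that differed most between animals in the test, with 2313, 2301, 7194 and 3839 CPM in R07110, R12016, R02046 and R14143 (adjusted p = 0.0116, and 0.0425 without R02046). R02046 was highest, and its other library, at 5678 CPM, was also above the other 3 animals. B2M, the light chain of MHC class I, was at 5598 CPM in R12016 and between 2990 and 3053 CPM in the other 3 animals (adjusted p = 0.0474). The neutrophil chemokine CXCL6 ranged from 1412 to 4413 CPM with R12016 lowest (adjusted p = 0.0270), and the cysteine protease legumain (LGMN) was lowest in R07110 at 1532 CPM against 2883 to 3283 CPM elsewhere (adjusted p = 0.0249).

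The rest of the highest 25 were the gene ENSMMUG00000009425 without a symbol (3739.9 ± 442 CPM), the actin-binding peptide TMSB4X (3713 ± 865 CPM), cytoplasmic actin ACTG1 (3180.4 ± 207 CPM), the monocyte chemokine CCL8 (3138 ± 916 CPM), the tryptophan-degrading enzyme IDO1 (3074 ± 1609 CPM), the zinc importer SLC39A8 (2726 ± 939 CPM) and the leukocyte integrin chain ITGB2 (2684 ± 782 CPM). None of these 7 was called, although IDO1 varied 3.897-fold from 1333 to 5197 CPM. Its lowest value was in R02046, whose other library was at 2237 CPM.

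**Figure D2:**
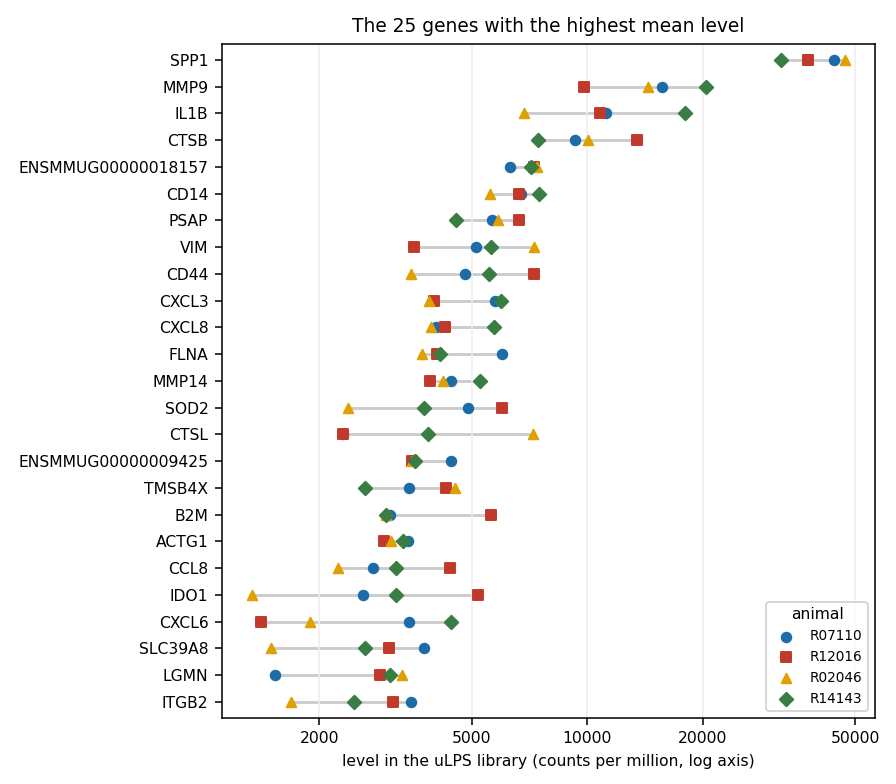
Level of the 25 genes with the highest mean in the 4 uLPS libraries, in CPM on a log axis, ordered by mean, with 1 symbol for each animal. SPP1 lies to the right of all other genes in every animal, and B2M and CTSL have 1 animal apart from the rest.

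Levels of different genes were compared per kilobase of exon, as CPM of the length-scaled counts, over the 16303 genes matched by symbol to 1 gene of the RefSeq annotation of Mmul_10, which held 92.4% to 93.0% of the reads. SPP1 was again highest, at 57944 ± 10084, followed by CXCL3 (37187 ± 8599.7), IL1B (34045 ± 13029), CXCL8 (25794 ± 4417), CCL8 (24592 ± 7327), CCL3 (20585 ± 2337) and the monocyte chemokine CCL2 (20249 ± 1508). The annotation gives CXCL3, IL1B, CCL8, CCL3, CCL2 and MAMU-E no untranslated exons, so the values of these 6 of the highest 15 are too high by an unknown factor. Among genes annotated with untranslated exons, the order after SPP1 was CXCL8, MMP9 (15153 ± 4202), CD14 (11533 ± 1382), TMSB4X (7228 ± 1695), CTSB (6836 ± 1764), the iron store ferritin heavy chain FTH1 (5712 ± 536), the interferon-induced IFI6 (5661 ± 1292) and CTSL (5564 ± 3209). The values of FTH1, IFI6 and CTSL lay within 1 SD of each other. Whether the annotated untranslated exons are complete was not checked. CXCL8 has only 407 exon bases in the annotation, so its value can be too high as well and its place is uncertain.

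Gene classes were compared by their share of the reads, which depends on the length of the transcripts as well as on their number. Matrix proteins and proteases held the largest share, 6.68%, 5.29%, 7.14% and 6.19% of reads in R07110, R12016, R02046 and R14143, which was 6.32% ± 0.793 on average (SD, n = 4) and rested on SPP1, MMP9 and MMP14. Lysosomal proteases and saposins held 3.72% ± 0.549 and the actin cytoskeleton with vimentin, thymosins and tubulin 2.19% ± 0.219. Interleukin and TNF family ligands (1.48% ± 0.572), inducible metabolic and antioxidant enzymes (1.44% ± 0.272), CXC chemokines (1.33% ± 0.337), cytosolic ribosomal proteins (1.23% ± 0.213), glycolytic genes (1.09% ± 0.0769), interferon-stimulated genes (1.08% ± 0.531), CC chemokines (1.05% ± 0.227) and heat shock genes (1.02% ± 0.321) each held between 1.02% and 1.48%.

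Smaller shares went to MHC class I and peptide loading (0.854% ± 0.251), uLPS sensing (0.744% ± 0.0904), translation elongation (0.674% ± 0.0516), complement (0.524% ± 0.133), lipid handling (0.518% ± 0.129), ferritin and metallothionein (0.435% ± 0.0270), NF-κB subunits and inhibitors (0.411% ± 0.0780), mitochondrially encoded transcripts (0.314% ± 0.0332), S100 proteins and annexins (0.291% ± 0.0607), immediate early genes (0.186% ± 0.0463) and MHC class II (0.0872% ± 0.0250). The last of these was the smallest, and the uLPS sensing class includes P2RY6. The highest and lowest animal differed by at most 1.35-fold for matrix, lysosomal, cytoskeletal, glycolytic, elongation, ferritin, uLPS sensing and mitochondrial genes. They differed 2.75-fold for interferon-stimulated genes and 2.67-fold for interleukin and TNF ligands.

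**Figure D3:**
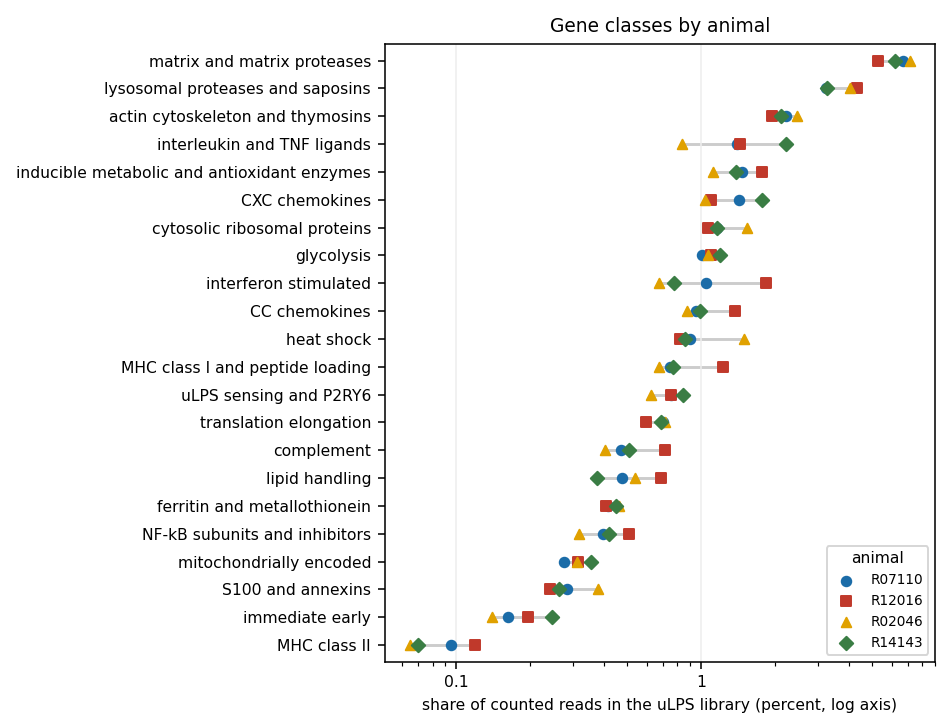
Share of the counted reads held by each of 22 gene classes in the 4 uLPS libraries, in percent on a log axis, with 1 symbol for each animal. R12016 lies apart on the right for interferon-stimulated and MHC class I genes, and R02046 lies apart on the right for heat shock genes.

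In the class of uLPS sensing genes, which includes P2RY6, 0 of 11 were called, against 6.35% of all genes. Without R02046 only P2RY6 was called, and 1 gene of the class was with the R02046 libraries exchanged. At an unadjusted p under 0.05 edgeR's test found 2 of the 11, and DESeq2 called 2. The receptor TLR4 was at 442, 509, 349 and 567 CPM in R07110, R12016, R02046 and R14143. Its co-receptor LY96 was at 7.52 to 10.6 CPM, MYD88 at 51.9 to 82.3, TICAM1 at 43.1 to 74.6, the kinase IRAK1 at 64.3 to 85.04 CPM and TRAF6, which varied most, at 7.91 to 21.3 CPM, whereas the serum carrier LBP did not exceed 0.0498 CPM. P2RY6, the receptor that MRS2578 blocks, was at 69.2, 48.8, 69.01 and 96.5 CPM. R14143 was highest and R12016 lowest, with an adjusted p of 0.0508 for the 4 animals and 0.0386 without R02046.

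Among interleukin and TNF ligands, 5 of 18 were called (6 of 17 without R02046 and 8 of 18 with its libraries exchanged). Over all genes the same 3 tests called 6.35%, 6.52% and 17.6%. IL1A, the second interleukin-1 agonist, was at 2100.0, 1873, 1059 and 3219 CPM in R07110, R12016, R02046 and R14143. IL6 was at 249, 429, 68.4 and 432 CPM and TNF at 238, 354, 139 and 174 CPM. For IL1A, IL6 and TNF alike, R02046 was lowest and no difference was called. With its other library in place R02046 was still lowest for IL6 and TNF, at 84.7 and 161 CPM, but not for IL1A, at 2067 CPM. The second libraries of R07110, R12016 and R14143 were at 965, 199 and 2599 CPM for IL1A. For IL6 they were at 91.6, 94.6 and 147 CPM. The 2 libraries of an animal thus differed unevenly in these genes, and the missing calls do not show that the animals were alike. IL12B, the shared p40 subunit of interleukin-12 and interleukin-23, was at 27.8, 299, 40.5 and 66.01 CPM, so that R12016 lay far above the other 3 (adjusted p = 0.252). The second libraries did not repeat this, with IL12B at 4.89, 20.2, 82.9 and 40.8 CPM and R02046 highest. The partner subunit IL23A was highest in R14143, at 50.5 CPM against 6.50 to 14.3 CPM (adjusted p = 0.0173), and the partner IL12A was at most 0.274 CPM. IL10, an anti-inflammatory cytokine, was at 0.274 to 1.599 CPM.

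IL1RN, which encodes the natural antagonist of the interleukin-1 receptor, was at 108, 339.8, 14.8 and 42.6 CPM in R07110, R12016, R02046 and R14143. The order of the animals differed from that of IL1B, with R12016 highest and R02046 lowest by a factor of 22.9 (adjusted p = 0.0320, and 0.152 without R02046). The neutrophil growth factor CSF3 was at 38.1 CPM in R14143 and between 5.45 and 7.15 CPM elsewhere (adjusted p = 0.0270), and the apoptosis ligand TNFSF10 was at 59.3 CPM in R12016 and between 4.88 and 7.58 CPM elsewhere (adjusted p = 0.00291).

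Chemokines differed in how even they were between animals. CCL2, at 2358 to 2769.8 CPM, was among the most even of the abundant genes (SD 0.10 log2). The macrophage chemokine CCL3, at 2083 to 2728 CPM, was less even (SD 0.23), though below the median SD of 0.32 over all genes. Neither was called. CXCL10 and CXCL11, ligands of CXCR3 that interferon induces, were uneven. CXCL10 was at 45.7, 287, 16.2 and 11.8 CPM in R07110, R12016, R02046 and R14143 (adjusted p = 0.00623). CXCL11 was at 22.1, 159, 12.7 and 6.12 CPM (adjusted p = 0.00806), and the third CXCR3 ligand CXCL9 was at 33.1 CPM in R12016 and at 2.93 to 3.79 CPM elsewhere, without a call (adjusted p = 0.0856). In the other library of R12016, CXCL9 was at 4.78 CPM. Of CC chemokines 4 of 13 were called, namely CCL18, CCL24, CCL13 and CCL19, all under 25 CPM. Of CXC chemokines 3 of 9 were, namely CXCL6, CXCL10 and CXCL11, and of all genes 6.35%. CCL19 had the widest spread among the CC chemokines, at 0.0498 to 3.91 CPM with R12016 highest (adjusted p = 0.0125). CCL22, a ligand of CCR4, was at 34.4 CPM in R12016 and at 1.95 to 5.43 CPM elsewhere, without a call (adjusted p = 0.298). The second libraries were at 2.70, 2.91, 4.17 and 3.27 CPM for CCL22, where R12016 was not highest.

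No NF-κB subunit or inhibitor was called (0 of 14, against 6.35% of all genes), but 4 of 14 were with the R02046 libraries exchanged (against 17.6%). The unadjusted p was under 0.05 for 2, and DESeq2 called 1. TNIP1, an A20-binding inhibitor, was the most abundant at 1166 to 1358 CPM, NFKBIA was at 308 to 477 CPM, NFKB1 at 238 to 470.0 CPM and TNFAIP3 at 224 to 526 CPM. R12016 was highest for 12 of these 14 genes in log2 CPM scaled by TMM and for 9 by total counts, and R02046 was lowest for 11 in log2 CPM scaled by TMM. Of 12130 genes tested, R12016 was highest for 26.9% by TMM and 2336 by total counts, and R02046 lowest for 3861 by TMM. REL varied most, at 31.7, 55.9, 8.88 and 35.7 CPM in R07110, R12016, R02046 and R14143. Of the immediate early genes 0 of 16 were called (2 of 16 without R02046, against 6.52% of all genes, and 3 of 16 with its libraries exchanged). In the same tests 4 had an unadjusted p under 0.05 and DESeq2 called 4. Their most abundant member IER3, a stress-response gene, was at 429.6 to 1238 CPM with R14143 highest, and the most variable, EGR3, was at 0.108 to 3.85 CPM.

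Inducible enzymes differed in which animal led, and 4 of 19 were called (2 of 19 without R02046 and 10 of 19 with its libraries exchanged). The shares of all genes were 6.35%, 6.52% and 17.6%. ACOD1, which makes itaconate, was at 1312 to 2134 CPM and was not called (adjusted p = 0.991). PTGS2, the inducible cyclooxygenase, was at 75.02, 52.00, 160.2 and 766 CPM in R07110, R12016, R02046 and R14143. Its level in R14143 was above those of the other animals and also in the second library of that animal, at 588 CPM (adjusted p = 0.00181, and 0.00345 without R02046). The prostaglandin E synthase PTGES was also highest in R14143, with 32.7 CPM in R14143 and 2.56 CPM in R07110 (adjusted p = 0.0239). The glutathione-synthesis gene GCLC was at 371, 206, 1214 and 346 CPM (adjusted p = 0.00794, and 0.0897 without R02046). R02046 was highest here, and its other library was at 1790.2 CPM. HMOX1, which degrades heme, was also highest in R02046, at 1072 CPM against 285 to 523 CPM, without a call (adjusted p = 0.181). NOS2 did not exceed 2.29 CPM (adjusted p = 0.0390, and 0.0730 without R02046), and ARG1 did not exceed 0.0996 CPM.

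Among lysosomal genes 2 of 21 were called, CTSL and LGMN, but 5 of 21 without R02046 and 9 of 21 with its libraries exchanged. Genes of lipid handling had 8 of 16 called (6 of 16 without R02046 and 11 of 16 with its libraries exchanged). For both classes the shares of all genes were 6.35%, 6.52% and 17.6%. Lysosomal lipase LIPA, the most abundant lipid handling gene, was at 1065 to 1971 CPM (adjusted p = 0.0687, and 0.0458 without R02046). Lipoprotein lipase (LPL) was at 1549.6, 2346, 1299 and 418 CPM in R07110, R12016, R02046 and R14143, lowest in R14143 (adjusted p = 0.0174). The fatty acid receptor CD36 was at 5.61, 25.8, 85.04 and 23.05 CPM, with R07110 lowest and R02046 highest (adjusted p = 0.00372, and 0.0108 without R02046). The cholesterol exporter ABCA1 was at 21.2 to 155 CPM with R12016 highest (adjusted p = 0.0173), and apolipoprotein E (APOE) at 198, 640.3, 514 and 512 CPM, not called (adjusted p = 0.117).

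Complement genes had 6 of 16 called (5 of 16 without R02046), against 6.35% (6.52%) of all genes. The C1 inhibitor SERPING1 varied most, at 6.07 to 39.98 CPM with R12016 highest (adjusted p = 0.0262). C1QA, a chain of the first complement component, was at 257, 856, 293 and 332 CPM in R07110, R12016, R02046 and R14143 (adjusted p = 0.0105). C1QB at 309 to 1124 CPM and C1QC at 285 to 884 CPM had the same pattern of R12016 above the other 3. The most abundant member, the anaphylatoxin receptor C5AR1, was at 843 to 1059 CPM and was not called.

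Of the class II presentation genes, 5 of 7 were called with and without R02046, against 6.35% and 6.52% of all genes. The most abundant member was the protease cathepsin S (CTSS), at 499 to 619.5 CPM and not called (adjusted p = 0.725), which held most of the share of this class given above. The invariant chain CD74 was at 174, 288, 26.5 and 76.9 CPM in R07110, R12016, R02046 and R14143 (adjusted p = 0.00350, and 0.0103 without R02046). MAMU-DRA was at 80.2, 127, 10.5 and 35.4 CPM (adjusted p = 0.00691). In both genes R12016 was highest and R02046 lowest, and MAMU-DRA varied most in the class. MAMU-DRB1 was instead lowest in R14143, at 14.98 CPM, with 131 and 131 CPM in the males, and MAMU-DPA was at 10.9 CPM in R07110 and at 1.48 to 1.89 CPM elsewhere. MHC genes differ in sequence between animals and have near-identical copies, so the number of uniquely placed reads can differ for that reason, which was not tested.

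Calls in housekeeping classes are read against the 6.35% of all genes, 6.52% without R02046 and 17.6% with its libraries exchanged. No glycolytic gene (0 of 16) and no translation elongation gene (0 of 12) was called, with GAPDH at 2051 to 2431 CPM and EEF2 at 1611 to 1983 CPM. HK3, a hexokinase, varied most of the glycolytic genes, at 56.3 to 213 CPM (adjusted p = 0.205, and 0.0207 without R02046), and FAU of the elongation class, at 86.4 to 164 CPM. The unadjusted p was under 0.05 for 3 glycolytic genes and 1 elongation gene, and DESeq2 called 2 and 1. Among actin and cytoskeletal genes 1 of 14 was called, the myosin light chain MYL6 at 57.99 to 113 CPM (adjusted p = 0.0259, and 0.327 without R02046), but 5 of 14 with the R02046 libraries exchanged. TMSB10 varied most of these, at 343 to 735 CPM. Among S100 proteins and annexins 1 of 8 was called, S100A4 at 38.2 to 121 CPM, while ANXA2 led that class at 1313 to 2041 CPM. Ferritin and metallothionein genes had 2 of 9 called, the metal-binding MT1E at 73.1 to 187 CPM for its more abundant copy, and the iron exporter SLC40A1 at 4.53 to 17.6 CPM. Of ribosomal protein genes 8 of 78 were called, among them the Y-linked RPS4Y1 and RPS4Y2, and 10 of 79 without R02046. R02046 was highest for 60 of these 78 in log2 CPM scaled by TMM and for 63 by total counts, but for 16 with its other library in place. Of 12130 genes tested, it was highest for 33.4%, 4487 and 3450 in the same 3 settings. The median difference of R02046 from the other animals over the 78 was 0.50 (log2), in the direction of its shift toward short genes.

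Over all 12885 genes with enough reads in at least 1 uLPS library, the SD of log2 CPM between the 4 animals had a median of 0.32, and it exceeded 1 for 1395 genes. Without R02046 the median was 0.24, with 1231 genes above 1, and it was 0.28, with 1338 genes, with the other R02046 library. The Spearman correlation across genes ran from 0.948 for R12016 and R02046 to 0.974 for R07110 and R14143, given as a description since genes are not independent. Between these pairs 2856 and 1475 genes differed more than 2-fold.

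At the even end, the 10 genes with the smallest SD among those with a mean of at least 100 CPM were SUPT16H, QARS1, CAPZA1, DPP3, ATP1B3, USP7, SLC12A7, UBXN4, CLTC and ALDOA. SUPT16H, a subunit of a histone chaperone, was at 194, 180.2, 195 and 194 CPM in R07110, R12016, R02046 and R14143. The clathrin heavy chain CLTC was at 631 to 689.8 CPM and the glycolytic aldolase ALDOA at 1099.5 to 1240.0 CPM. Their SDs were 0.01, 0.03 and 0.03 on the log2 scale.

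At the uneven end, Y-linked genes separated the sexes as labelled. RPS4Y1, DDX3Y, USP9Y, RPS4Y2, KDM5D and ZFY were at 25.1 to 169 CPM in the 2 males and at a count of 0 in the 2 females. The 25 other named genes with the largest SD and a mean of at least 10 CPM were SCIN, CCN3, TNFRSF18, MYH15, SPARCL1, ADAMDEC1, ANPEP, CCR7, LGR4, ND4, NR4A3, SASH1, ISLR, NCAM1, IL4I1, FLT1, CXCL10, SERPINE2, CXCL11, IL1RN, CLEC1A, COL4A1, MCOLN2, CLEC12A and COL3A1. In 19 of these 25, the animal with the highest level was also the highest among the second libraries. The same held for 66 of the 100 most variable genes and for 44.8% of all 8121 genes with a mean of at least 10 CPM.

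The actin-severing protein scinderin (SCIN, chromosome 3, 102405722 to 102492186 of Mmul_10) led the list. It was at 95.00, 123, 10.5 and 0.299 CPM in R07110, R12016, R02046 and R14143. The males were high, R02046 was low and R14143 was near 0, and the second libraries gave the same order, with 94.8, 178, 6.54 and 0.632 CPM (SD 3.85 log2, adjusted p = 0.000719).

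SPARCL1 (chromosome 5, 85876721 to 85940448), a matricellular protein, was at 170.0, 156, 193 and 1.84 CPM in R07110, R12016, R02046 and R14143. Its 3 high animals were close together, while R14143 was lower also in its second library, at 1.26 CPM (adjusted p = 0.000719). The adhesion molecule NCAM1 (chromosome 14, 106114298 to 106427190) was at 90.4, 7.05, 63.3 and 4.03 CPM, with an adjusted p of 0.00046. R07110 and R02046, a male and a female, were high and the other 2 animals low, in second libraries too.

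MYH15, a myosin heavy chain, was at 0.274, 91.5, 1.41 and 6.77 CPM in R07110, R12016, R02046 and R14143 (adjusted p = 0.00270). ADAMDEC1, a macrophage metalloprotease, was at 1.16, 65.6, 14.2 and 0.946 CPM (adjusted p = 0.00283). Both were highest in R12016, whose second library was at 72.02 CPM for MYH15 and 49.7 CPM for ADAMDEC1. The aminopeptidase ANPEP (CD13) was at 22.5, 2.13, 219 and 11.9 CPM, with R12016 lowest and R02046 highest (adjusted p = 0.00148, and 0.0110 without R02046).

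The mitochondrially encoded ND4, a subunit of respiratory complex I, was at 12.6, 456, 29.6 and 22.6 CPM in R07110, R12016, R02046 and R14143. R12016 stood apart, also in its second library at 241 CPM (adjusted p = 0.00274), and ND5 was at 233 CPM in R12016 and at 50.4 to 74.0 CPM elsewhere (adjusted p = 0.0105). The other mitochondrial genes did not share this: COX1 was at 952 to 1275 CPM and ATP6 at 478 to 697 CPM, with R14143 highest in both. COX2 was at 47.01 CPM in R02046 and at 9.48 to 11.1 CPM in the other animals (adjusted p = 0.00775, and 0.348 between those 3). Mitochondrial sequence varies between animals and has copies in the nuclear genome, and their part in these counts was not tested.

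IL4I1, an amino acid oxidase of activated macrophages, was at 149.9, 228, 70.8 and 7.92 CPM in R07110, R12016, R02046 and R14143, with R14143 lowest (adjusted p = 0.0227). The calcium channel MCOLN2 was at 52.5, 10.1, 7.37 and 115 CPM (adjusted p = 0.0119), and the inhibitory lectin CLEC12A was at 2.84 CPM in R12016 against 26.7 to 65.8 CPM elsewhere (adjusted p = 0.0357, and 0.0787 without R02046). TNFRSF18, also known as GITR, was at 42.2 CPM in R12016 and at a count of 0 in R02046, which allows up to 0.325 CPM, and LGR4, a receptor for R-spondins, was at 35.1 and 0.650 CPM in the same animals. Without R02046, the SD of TNFRSF18 went from 3.73 to 1.53, that of LGR4 from 2.38 to 1.12 and that of ISLR from 2.20 to 1.13. Those of ANPEP, SASH1, FLT1, IL1RN, MCOLN2 and CLEC12A also went below 1.85, the smallest SD among the 25. CCN3, NR4A3, SASH1, ISLR, FLT1, SERPINE2, CLEC1A, COL4A1 and COL3A1 were not called, with adjusted p from 0.0518 to 0.182, but without R02046 NR4A3 (0.0189) and ISLR (0.00865) were.

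**Figure D4:**
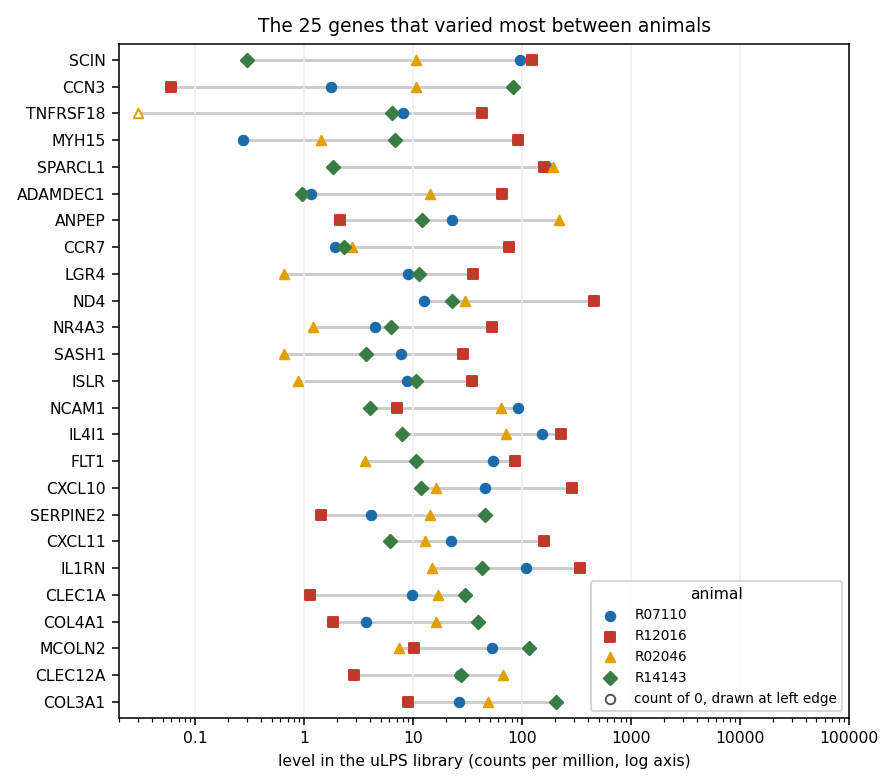
Level of the 25 named genes with the largest SD between animals in the 4 uLPS libraries, in CPM on a log axis, with 1 symbol for each animal and an open symbol for a count of 0. SPARCL1 and IL4I1 are set by a low R14143, CCR7 and ND4 by a high R12016, and ANPEP by a high R02046 and a low R12016.

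The animals did not contribute evenly to the spread. Of 8121 genes with a mean of at least 10 CPM, R12016 was more than 2-fold above every other animal for 115 genes and more than 2-fold below for 98. The numbers were 48 and 132 for R02046, 63 and 23 for R14143, and 9 and 15 for R07110. Of the genes above in R12016, 74 of 115 were called and 106 were also highest in R12016 among the second libraries. For R14143 12 of 63 were called and 34 were again highest, and for R02046 16 of 48 were called and 29 were again highest. These genes were picked by their level in libraries that the test also uses. A share of calls above the 6.35% of all genes is therefore no separate support. Among all 8121 genes, 44.8% had the same highest animal in the second libraries.

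Interferon-stimulated genes set R12016 apart. They held 1.05%, 1.84%, 0.671% and 0.772% of reads in R07110, R12016, R02046 and R14143. R12016 was the highest animal for all 25 genes found, by TMM-scaled and by total counts. Of 12130 genes tested, it was highest for 26.9% by TMM-scaled and for 2336 by total counts. The median difference of R12016 from the other animals over the list was 1.51 (log2), against 0.12 for R07110, -1.09 for R02046 and -0.57 for R14143, and over all genes tested it was -0.01 for R12016. Of the 25 genes 12 of 25 were called, and 17 of 25 without R02046, against 6.35% and 6.52% of all genes. In the second libraries R12016 was again highest in share, at 1.19% against 0.643% to 0.757%.

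IFI6, a mitochondrial protein with the highest level of the class, was at 2210.3, 3019, 1887 and 2067 CPM in R07110, R12016, R02046 and R14143 (adjusted p = 0.213), and MX1, an antiviral GTPase, was at 1368, 2129, 795 and 1097 CPM (adjusted p = 0.162). Neither was called, with R12016 highest by less than 2-fold over R07110. IFIT2, which blocks translation of viral RNA, was at 344, 1062, 155 and 155 CPM (adjusted p = 0.00995). ISG15, a ubiquitin-like modifier, was at 290.0, 985, 135 and 230.0 CPM (adjusted p = 0.0405).

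HERC5, the ligase that attaches ISG15, was at 71.5, 226, 32.1 and 32.6 CPM in R07110, R12016, R02046 and R14143 (adjusted p = 0.00659). OAS1, which makes the activator of RNase L and varied most in the class, was at 54.5, 268, 30.8 and 18.9 CPM (adjusted p = 0.0169). In all 4 of IFIT2, ISG15, HERC5 and OAS1, R12016 was above R07110 and R07110 above the 2 females.

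The 250 bases before the annotated start of 4 of these genes are shown because they contain GAAA, any 2 bases and GAAA again, letters found in the element bound by the interferon-activated factor ISGF3, at least 2 times, counting both strands. They are read 5′ to 3′ on the strand of the gene from the Mmul_10 genome, with RefSeq gene starts, and matches are in capitals, starting with TTTC where the other strand holds the letters.
ISG15 (chr1:223405103-223405352, minus strand): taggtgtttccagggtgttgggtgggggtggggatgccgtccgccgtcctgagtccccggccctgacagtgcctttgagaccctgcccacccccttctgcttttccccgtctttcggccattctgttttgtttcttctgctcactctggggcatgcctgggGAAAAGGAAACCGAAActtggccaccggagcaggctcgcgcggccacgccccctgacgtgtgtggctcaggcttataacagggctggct
IFIT2 (chr9:89563210-89563459, plus strand): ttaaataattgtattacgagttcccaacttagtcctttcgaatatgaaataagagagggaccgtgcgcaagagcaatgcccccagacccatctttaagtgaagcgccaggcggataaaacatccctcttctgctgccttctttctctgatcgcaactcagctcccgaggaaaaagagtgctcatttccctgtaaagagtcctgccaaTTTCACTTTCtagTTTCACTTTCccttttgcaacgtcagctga
HERC5 (chr5:86844784-86845033, plus strand): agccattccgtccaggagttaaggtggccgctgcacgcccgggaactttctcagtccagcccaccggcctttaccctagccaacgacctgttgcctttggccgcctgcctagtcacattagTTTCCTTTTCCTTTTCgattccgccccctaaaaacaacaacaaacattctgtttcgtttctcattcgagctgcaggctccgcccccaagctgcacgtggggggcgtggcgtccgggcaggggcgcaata
IFI6 (chr1:197051336-197051585, plus strand): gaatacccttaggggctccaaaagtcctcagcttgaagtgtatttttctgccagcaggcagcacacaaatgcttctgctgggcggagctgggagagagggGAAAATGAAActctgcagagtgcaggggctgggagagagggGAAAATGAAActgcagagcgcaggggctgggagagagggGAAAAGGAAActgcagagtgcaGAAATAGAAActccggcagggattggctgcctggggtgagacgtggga

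The letters overlap in ISG15 and HERC5, so that neighbouring matches share bases, and IFI6 holds them 4 times. They were found in 6 of the 26 windows of the interferon-stimulated list, or 23.1%, in 628 of 20726 windows of all protein-coding genes, or 3.03%, and in 300 of 10798 windows of genes tested, or 2.78%. In the windows of CXC chemokines, CC chemokines and heat shock genes the letters were found in 0 of 10, 0 of 14 and 0 of 17. For chemokines such as CXCL3, CCL8, CCL3 and CCL2 the annotation gives no untranslated exons. Their windows end at the coding start and can miss the promoter, so the chemokine counts cannot be compared with the interferon-stimulated list. IFI6 holds them most often among the 4, and its difference between animals was the smallest of the 4.

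MHC class I and the immunoproteasome, which interferon also raises, had the same animal on top. They held 0.745%, 1.23%, 0.676% and 0.769% of reads in R07110, R12016, R02046 and R14143. Of this class 2 of 9 were called, and 5 of 9 without R02046, against 6.35% and 6.52% of all genes. The immunoproteasome subunit PSMB8, with the largest spread in the class, was at 551 CPM in R12016 and at 217 to 247 CPM elsewhere (adjusted p = 0.0531, and 0.0273 without R02046), and PSMB9 was at 87.01 CPM and at 37.5 to 51.8 CPM elsewhere (adjusted p = 0.0132).

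The 5 genes that lay farthest above the next animal in R12016 were CCR7, ND4, MYH15, the phospholipase PLAAT3 and CXCL9. CCR7, the receptor that guides cells to lymph nodes, was at 1.92, 76.1, 2.71 and 2.29 CPM in R07110, R12016, R02046 and R14143 (adjusted p = 0.0195). Its second library in R12016 was at 20.2 CPM. PLAAT3 was at 127 CPM and at 8.36 to 13.2 CPM elsewhere (adjusted p = 0.00297).

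Heat shock genes set R02046 apart, with 0.903%, 0.819%, 1.499% and 0.861% of reads in R07110, R12016, R02046 and R14143. R02046 was highest for 15 of the 17 genes tested in log2 CPM scaled by TMM and for 16 by total counts, with a median difference from the other animals of 0.87 (log2). Of 12130 genes tested, it was highest for 33.4% by TMM and for 4487 by total counts. None of the 17 was called by edgeR's test, with or without R02046, none had an unadjusted p under 0.05, and DESeq2 called 0. The 2 libraries of an animal differed unevenly in genes such as HSPB1 (values below), which widens the error of the test. The missing calls therefore do not show that the animals were alike. With the other R02046 library in place, the share was 1.09% and R02046 was highest for 11, against 3450 of 12130 genes tested. Over the other 3 animals the share was 0.861% ± 0.0420 (SD, n = 3) and the median SD of the genes 0.12 (log2), against 0.46 with R02046, so the spread of this class rested on 1 library whose condition is in doubt.

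HSPA8, the constitutive HSP70 and the most abundant member, was at 2065, 1793, 2795 and 1250.0 CPM in R07110, R12016, R02046 and R14143. HSP90AA1, the inducible cytosolic HSP90, was at 1524, 1435, 2771 and 1828 CPM. BAG3, a co-chaperone of HSP70, was at 54.7, 46.02, 215 and 51.4 CPM, with R02046 alone above 55 CPM. Its adjusted p was 0.630, and the other R02046 library was at 58.4 CPM. The co-chaperone DNAJA4, with the largest spread in the class, was at 73.1 CPM in R02046 and at 10.9 to 15.2 CPM elsewhere, and at 9.63 CPM in the other R02046 library. The small heat shock protein HSPB1 was at 200.2 and 44.4 to 64.7 CPM, and at 53.7 CPM in the other library. In the second libraries of R07110, R12016 and R14143, HSPB1 was at 1184, 1868 and 66.6 CPM.

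**Figure D5:**
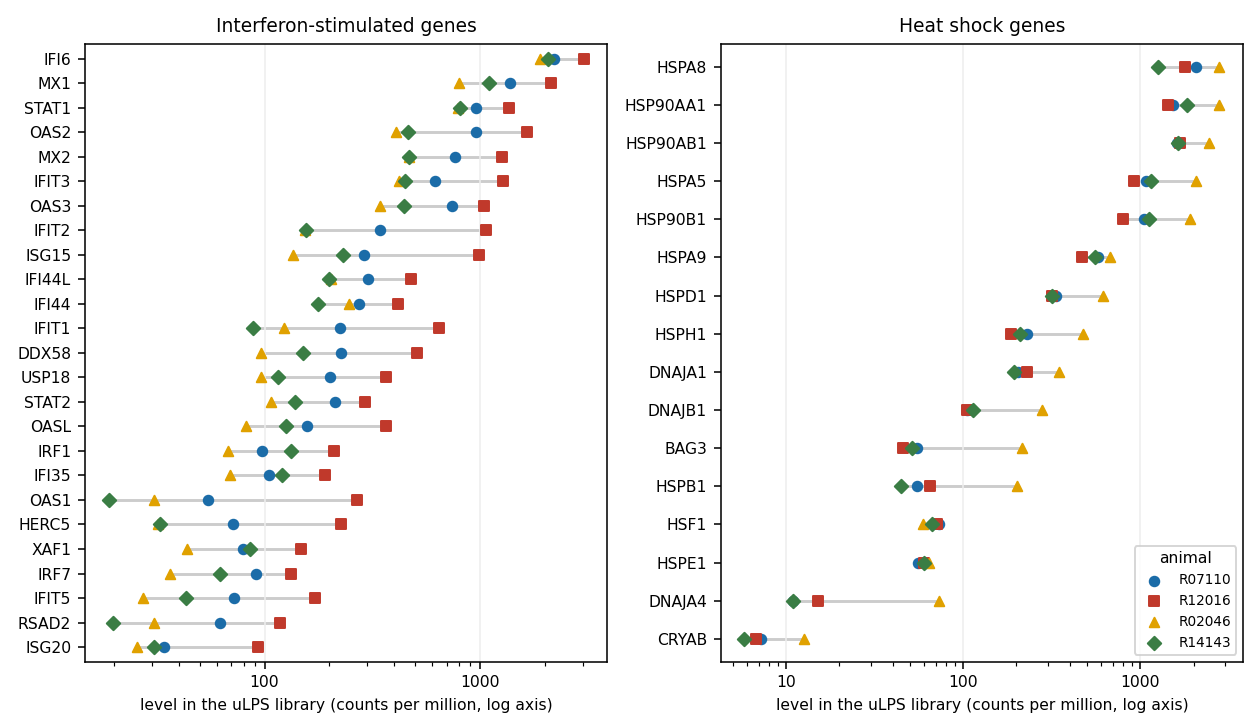
Level of 25 interferon-stimulated and 16 heat shock genes in the 4 uLPS libraries, in CPM on log axes, with 1 symbol for each animal. R12016 is highest for all 25 genes on the left, and R02046 for all but HSF1 on the right.

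Of the 48 genes more than 2-fold above in R02046, 29 were also highest there among the second libraries, and the 5 that follow are among these. The elastase MMP12 was at 699.6, 222, 2350.2 and 549.7 CPM in R07110, R12016, R02046 and R14143, and at 3273 CPM in the other R02046 library (adjusted p = 0.00670). The muscle protein gene MYOM1 was at 55.5 CPM against 4.56 to 8.71 CPM (adjusted p = 0.00623, and 0.328 between the other 3 animals), and 43.8 CPM in the other library. The same held for ANPEP at 277 CPM and for GCLC and COX2.

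Matrix genes of fibroblasts set R14143 apart in the uLPS libraries, beside the summed fibroblast and mural markers given above, whose part in the result was not tested. COL1A1, a chain of type I collagen, was at 50.7, 38.3, 108 and 501 CPM in R07110, R12016, R02046 and R14143. The values of COL3A1 were 26.3, 8.94, 48.9 and 205 CPM. In the second libraries the order was less clear, with 183 CPM in R14143 and 168 CPM in R02046 for COL1A1, and 69.3 and 129 CPM for COL3A1. Neither was called (adjusted p = 0.0863 and 0.0699), and no fibroblast or mural marker was (0 of 7), but 3 were with the R02046 libraries exchanged. An unadjusted p under 0.05 was found for 5 of the 7 markers, and DESeq2 called 3.

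COL6A3 was at 104 CPM in R14143 and at 12.2 to 13.3 CPM elsewhere, the matrix protein AEBP1 at 32.01 and 3.26 to 3.85 CPM, and CCN3, a matricellular signaling protein, at 82.1 and 0.0592 to 10.6 CPM. None of these was called (adjusted p = 0.0840, 0.0940 and 0.128). Among the second libraries R14143 was highest by less. COL6A3 was there at 43.8 CPM against 22.1 to 29.5 CPM, AEBP1 at 10.9 against 1.51 to 10.1 CPM, and CCN3 at 8.33 against 1.94 to 3.00 CPM. With CSF3 and PTGS2, COL6A3, AEBP1 and CCN3 were the 5 genes farthest above the next animal in R14143, and CSF3 and PTGS2 were called. Fibronectin (FN1) followed the order of COL1A1 at 84.8, 82.98, 357 and 717 CPM in R07110, R12016, R02046 and R14143 (adjusted p = 0.0577). Within the matrix class the collagenase MMP1 varied most, at 11.1 to 123 CPM (adjusted p = 0.117). Of this class 6 of 21 were called, against 6.35% of all genes, namely MMP12, MMP3, PLAUR, MMP2, PLAU and the plasminogen activator inhibitor SERPINB2. MMP3 was at 315, 90.5, 729 and 446 CPM, with R12016 lowest (adjusted p = 0.00995).

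R07110 was the least distinct animal. Its 5 genes farthest above the next animal were PARM1, SEL1L3, PAQR5, ASAP2 and F13A1. SEL1L3 was at 37.5 CPM in R07110 against 2.96 to 12.1 CPM elsewhere (adjusted p = 0.0330), and ASAP2, which acts on ARF GTPases, was at 89.7 CPM against 8.34 to 35.8 CPM (adjusted p = 0.0419). PARM1 at 53.8, PAQR5 at 41.4 and the factor XIII chain F13A1 at 28.5 CPM were not called.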

How the data were processed

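Poly(A) RNA of 8 cultures was made into directional libraries and sequenced by the authors. Per the labels, the processing used Trimmomatic 0.30, TopHat2 2.0.14, SAMtools 1.3 and HTSeq 0.6.1p1 with the build Mmul_10. The methods of the paper name fastp, STAR, SAMtools and HTSeq instead, and the difference was not resolved. The deposited values are whole-number counts of unique reads in exons for 35432 Ensembl genes, without normalization. The annotation release and the strand setting are not given in the sources used here, and near-identical copies and overlapping genes are uncertain. Symbols came from the files for 23929 genes and from a reference table for 577, and 10926 have none.

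CPM used the total count. SDs used log2 CPM scaled by TMM with a prior count of 2. The difference between animals was tested with edgeR 4.0.16 (R 4.3.3, limma 3.58.1) on all 8 libraries with condition as a term, after filterByExpr with a minimum count of 10, and checked on simulated counts and with DESeq2 1.42.0. The simulated counts had a dispersion of 0.05 for every gene and no effect of the condition that differed between animals. They check that the test runs and cannot show how it behaves on these data. No 2 libraries were duplicates. Members and gene lists were chosen with earlier results of these data known. The genes named were the 25 with the highest mean CPM, the 15 highest per kilobase, the 25 with the largest SD (mean of at least 10 CPM), the 10 with the smallest SD (mean of at least 100 CPM), 5 for each animal, and for each list the highest and the most variable member. CSF1R, IL1B, SOD2, CCL5, TLR4 and P2RY6 were named in any case, and other list members were named as examples after their values were seen. The alternatives were other scalings, filters, prior counts and tests, each animal left out, and the R02046 libraries exchanged. The p-values measure the spread between 2 libraries of an animal, which received different treatments. A planned marker gene is not reported here.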

Additional observations from a re-analysis of the deposited data

Results flagged for a closer look

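In 31 gene classes and 127 named genes, the animal farthest from the others was compared with the rest. The measure was the gap to its nearest neighbour, divided by the whole range of the 4 animals. Classes were taken in percent of reads and genes in log2 CPM scaled by TMM, so the ratios of genes do not follow from the CPM given. This ratio was above Dixon's 95% critical value for 4 samples in 17 cases, a limit that chance alone passes in about 1 in 20 when items are not chosen. Many of the named genes were chosen for a wide gap or spread between animals, so this rate does not apply to them. R12016 was the animal apart for B2M (ratio 0.961), CCR7 (0.913), CXCL9 (0.902), the ribosomal protein gene RPL4 (0.889, at 576 CPM in R12016), PSMB8 (0.868), PLAAT3 (0.842) and CNP (0.831), and for the shares of endothelial markers (0.847) and of MHC class I and peptide loading (0.830). R02046 was apart for BAG3 (0.938), COX2 (0.894) and the share of heat shock genes (0.876). R14143 was apart for SPARCL1 (0.974), COL6A3 (0.956), CSF3 (0.904) and AEBP1 (0.894), and R07110 for LGMN (0.936). R12016 was the high animal in each of its cases but RPL4, where it was low, R02046 in its 3, and R14143 in all but SPARCL1, while LGMN was low in R07110.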

How the results depend on the processing

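The number of genes that differed between animals moved most with the test: 770 by edgeR's quasi-likelihood test became 2773 by edgeR's likelihood ratio test and 2468 by DESeq2's likelihood ratio test. It was 1433 without a filter on low counts and 2141 with the R02046 libraries exchanged, of which 758 were shared with the 770. Leaving out 1 animal gave 304 to 802 genes, with 407 without R07110, 304 without R12016, 802 without R02046 and 382 without R14143, on fewer libraries. It was 777 with DESeq2's size factors, 596 with at least 10 counts in every library and 1073 without a condition term. For the named genes, the adjusted p stayed on its side of the threshold in 1172 recomputed values, crossed to a call in 156 and lost it in 43. The SD of log2 CPM of a named gene moved by more than 1.5 times in 138 recomputed values, mostly with an animal left out or the other R02046 library, and by less in 1004. The mean CPM moved by more than 1 SD in 2 recomputed values and by less in 908, and no share of a class or marker list did. Depth limits genes near 0.325 CPM in R02046. No paired analysis was possible because the libraries with uLPS alone are 1 per animal, and the comparison is between the animals themselves.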
